A study of Xenopus laevis with 6 samples.

Results

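Xenopus laevis, the African clawed frog, is an allotetraploid: its genome joins the chromosome sets of a pair of ancestral species. The chromosomes of the L subgenome are on average longer than their S counterparts, and many genes are kept as a homeolog pair, with an L copy and an S copy. The copies of a pair stand in the same nucleus, so their RNA can be compared within a library without any difference in stage, handling or depth. The S subgenome is known to have lost more genes than the L subgenome.

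The homeologs were taken from a table of read counts with 45090 genes. A pair was formed where an L and an S gene carried the same name apart from the ending. Names that began with LOC or Xelaev18 were left out. This gave 7480 pairs. CPM are counts scaled to the TMM-scaled size of the library, not to its total count. Of the pairs, 5518 were tested because the mean CPM of L and S summed to at least 1 in the intact embryos. The other 1962 pairs lay under that minimum, and 308 of them had 0 counts in both copies. Other model or clone names stayed in, and 305 of the tested pairs had such a name. These names apart, the member just inside the minimum was mmp23b, at 1.0002 CPM, and just outside it was dsel, at 0.997 CPM. Names with no partner were also listed, 3828 ending in L and 1178 ending in S, and were not compared.

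The RNA came from whole wild-type embryos at Nieuwkoop-Faber stage 12.5, the end of gastrulation, after fertilization in vitro and removal of the jelly. Half-size embryos (3 libraries) were twins that grew after the first blastomeres had been separated, and intact embryos (3 libraries) were their undivided siblings, with replicate numbers 1 to 3 that name the same sibling set in both groups. The labels give neither the number of embryos in a library nor whether the sibling sets had different mothers. The half-size libraries held between 20205384 and 26097821 counts and the intact libraries between 20069300 and 29284864. On these totals, in place of the TMM-scaled sizes used for the other CPM values, 1 count was worth 0.0341 to 0.0498 CPM. Of 28 genes that mark gastrula tissues, 27 reached 1 CPM in the intact libraries, with a range of 0.928 to 804 CPM. Of 13 genes of organs that form later, 2 reached 1 CPM, namely the L copy of the muscle myosin myh6 at 5.09 CPM and its S copy at 6.62 CPM, and 6 were at 0. The counts of the tested pairs came to 53.4%, 54.3% and 52.7% of the TMM-scaled library size, not of the total count, in intact replicates 1, 2 and 3.

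Across the tested pairs the L copy gave slightly more reads than the S copy. The L copies together held 52.97%, 52.95% and 53.07% of the pairs' CPM in intact replicates 1, 2 and 3, a mean of 53.0% ± 0.06 (SD, n = 3). The median log2 ratio of L to S, taken after adding 0.1 CPM to both copies, was 0.29, 0.30 and 0.31 in the same libraries, or 1.23-fold for the mean over libraries. This small shift lay inside a broad spread, since the middle 50 percent of pairs ran from -1.0 to 1.83 on the log2 scale. No transcript length was divided out, so every ratio here is one of read counts, and a difference in the length or completeness of the listed gene models enters it. The sources used here do not state how reads shared by near-identical copies were counted.

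Most pairs were unequal. With edgeR's quasi-likelihood test on the counts of both copies, and the library as a block, 4135 of 5518 pairs (74.9%) differed between L and S at a Benjamini-Hochberg adjusted p under 0.05. The L copy was higher in 2426 pairs (44.0%) and the S copy was higher in 1709 (31.0%). At 2-fold or more these counts were 1985 (36.0%) with L higher and 1352 (24.5%) with S higher, and at 10-fold or more they were 744 (13.5%) and 446 (8.08%) in the same order. The ratio kept its sign in all 3 intact libraries in 4693 pairs (85.0%), with L higher in 2714 and S higher in 1979. Across pairs the log2 ratios of any 2 intact libraries had a Pearson r between 0.94 and 0.95, given as a description over 5518 pairs, and the median SD of a pair's log2 ratio was 0.35.

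**Figure D1:**
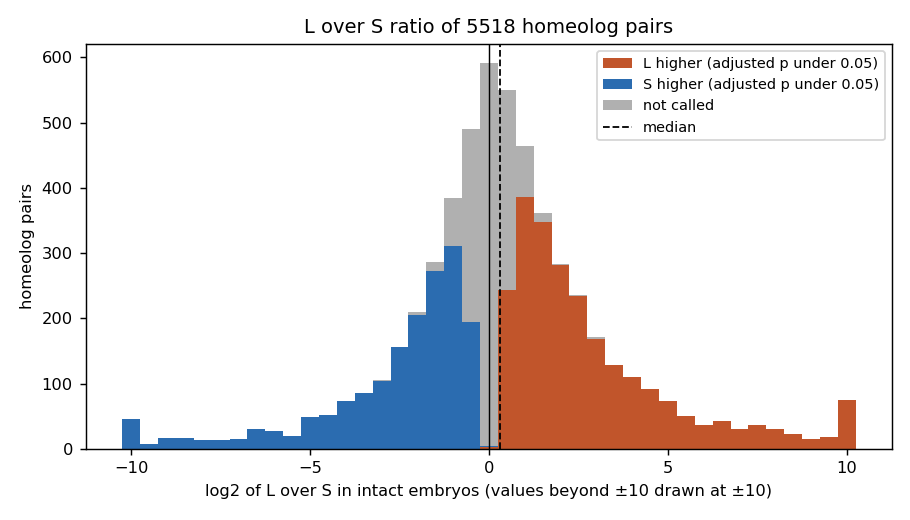
Histogram of the log2 ratio of L to S in intact embryos for 5518 homeolog pairs (x axis, log2 units; y axis, number of pairs; colours show the edgeR call, the dashed line the median). The distribution centres at 0.30, just right of 0, with a tail on both sides: 744 pairs were called at 10-fold or more with L higher and 446 with S higher.

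The size of the imbalance fell with the level of the pair. Among the 769 pairs with 1 to 3 CPM the median absolute log2 ratio was 2.31 and 34.7% differed by at least 10-fold. Among the 1145 pairs with 100 CPM or more it was 0.92 and 10.5% differed by at least 10-fold. The excess of L calls was present at every level, with 36.4% L higher against 28.9% S higher in the lowest class and 47.3% against 31.5% in the highest. Of all pairs, 1308 differed by less than 1.5-fold, 784 by 1.5-fold to 2-fold, 1292 by 2-fold to 4-fold, 942 by 4-fold to 10-fold and 1192 by 10-fold or more, called or not.

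Of the 10 most abundant pairs, 5 were called with L higher and 4 with S higher, with log2 ratios between -0.74 and 1.84. Pairs with a model or clone name were left out of this ranking. The cold-inducible RNA-binding protein cirbp, the pair with the highest summed level, had 6413, 7265 and 7207 CPM for L and 5778, 6229 and 6797 CPM for S in intact replicates 1, 2 and 3. The L copy was higher in each library, by 0.15 ± 0.05 on the log2 scale (SE, adjusted p = 0.021), and the call was lost without replicate 1 (adjusted p = 0.061) or replicate 2 (adjusted p = 0.13), and also with DESeq2 and without the library block. The constitutive chaperone hspa8 went the other way, with 3992, 5889 and 4693 CPM for L and 5057, 6709 and 5557 CPM for S, and a log2 ratio of -0.26 ± 0.05 (adjusted p = 0.0024). The RNA helicase ddx5 did not pass the test, with 2294, 2222 and 2153 CPM for L, 2203, 1864 and 2192 CPM for S and an adjusted p of 0.25. The chromatin protein hmgb3 was the least balanced of the 10 most abundant pairs, with 3880, 2856 and 3497 CPM for L and 931, 816 and 1108 CPM for S, or 1.84 ± 0.09 (adjusted p = 2.3e-06). The remaining members were the large scaffold ahnak-like at 1.47, the splicing factor srsf2 at 0.63 and the RNA-binding hnrnpab at 0.26, all with L higher, and anp32c at -0.74, the keratin krt5.7 at -0.33 and the RNA-binding hnrnpa1 at -0.22, all with S higher. The call for hnrnpa1 was lost without replicate 2 (adjusted p = 0.08) and with DESeq2, and those for hnrnpa1, hspa8 and krt5.7 were lost without the library block.

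At the other end stood pairs in which nearly all reads were counted for 1 copy, although both copies were counted in every intact library. The zinc transporter slc30a8 had 345, 354 and 674 CPM for L and 0.0823, 0.0690 and 0.0489 CPM for S in intact replicates 1, 2 and 3, which is 32430 counts against 5. The ratio of these counts was 6486, with a 95% exact interval of 2779 to 19977 that covers counting error only. The polyadenylation factor nudt21 had 244, 189 and 193 CPM for L and 0.411, 0.483 and 0.245 CPM for S, a log2 ratio of 9.04 ± 0.22 (adjusted p = 4.9e-07). The nuclear reader of methylated adenosine ythdc1 had 159, 168 and 184 CPM for L and 0.123, 0.276 and 0.245 CPM for S, a log2 ratio of 9.59 ± 0.23 (adjusted p = 4.9e-07). In all 3 pairs the lowest L value lay far above the highest S value, but they were picked by the size of this ratio and its sign in every library. The other pairs of the 10 with the largest L excess were rbm19, a ribosome biogenesis protein, vdac3, a channel of the outer mitochondrial membrane, pld3, vwc2l.2, the kinetochore protein mis12, the small GTPase rab34 and the LIM protein fhl5. Their log2 ratios lay between 8.39 and 10.58, and without replicate 3 that of mis12 was 9.91 in place of 8.53.

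In other pairs nearly all reads were counted for the S copy. E-cadherin, cdh1, which holds epithelial cells together, had 0.370, 0.345 and 0.783 CPM for L and 328, 300 and 279 CPM for S in intact replicates 1, 2 and 3. Its log2 ratio was -9.28 ± 0.26 (adjusted p = 5.8e-07). Another cadherin, cdh26, had 0.0411, 0.103 and 0.196 CPM for L and 70.1, 112 and 110 CPM for S, or -9.75 ± 0.29 (adjusted p = 6.7e-07). The splicing protein crnkl1 had 0.329, 0.379 and 0.196 CPM for L and 188, 156 and 176 CPM for S, or -9.10 ± 0.23 (adjusted p = 4.9e-07). Every S value of these pairs was far above every L value, and these pairs too were picked by their ratio. The other pairs of the 10 with the largest S excess were pus1 and tyw1, which modify transfer RNA, ggnbp2, gemin8 of the SMN complex, ugt8, an enzyme of galactolipid synthesis, draxin, a secreted guidance protein, and acbd6, which binds acyl-CoA. Their log2 ratios lay between -7.75 and -9.38, and that of gemin8 was -10.10 without replicate 1 in place of -9.12.

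A copy was at 0 counts in all 3 intact libraries in 98 pairs on the S side and 69 on the L side. The splicing factor sf1 had 0 counts for L and 789, 703 and 730 CPM for S, so S was at least 18158-fold higher than L, against a floor of 3 counts over the 3 libraries. The signal recognition particle subunit srp72 had 0 counts for L and 367, 381 and 435 CPM for S, at least 9624-fold higher in S. Next in level came hnrnpul1, at least 4150-fold higher in S, champ1-like, at least 2948-fold, and the aminopeptidase anpep, at least 2652-fold. On the other side the gap junction protein gjb1 had 250, 528 and 227 CPM for L and 0 counts for S, so L was at least 8668-fold higher. The ribosome biogenesis GTPase bms1 was at least 6809-fold higher in L, serp2 at least 6727-fold, the RNA exosome nuclease exosc10 at least 5615-fold and the co-chaperone dnaja4.1 at least 1899-fold. Such a bound scales with the counts of the higher copy, so it falls when a library is left out. The lowest bounds without 1 library were 11367 for sf1, 5938 for srp72, 2451 for hnrnpul1, 1920 for champ1-like, 1249 for anpep, 4041 for bms1, 4046 for serp2 and 3519 for exosc10. They were 3569 for gjb1 and 801 for dnaja4.1, in both cases without replicate 2, which held the most counts of these L copies.

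The names were then looked up in another set of gene models. In a RefSeq gene table of the assembly Xenopus_laevis_v10.1, used for names only because the labels do not name the build behind the counts, 3938 of the 5518 L names (71.4%) and 3834 of the S names (69.5%) were found. Among the 98 pairs with S at 0 counts, the L name was found in 64 and the S name in 20. Among the 69 pairs with L at 0 counts, the L name was found in 24 and the S name in 37. In both kinds of pair the copy at 0 counts was listed for fewer pairs than its partner. The same held at 10-fold or more, where the lower S name was found in 52.3% of 744 pairs and the higher L name in 69.6%, and where the lower L name was found in 53.6% of 446 pairs and the higher S name in 67.0%. Among the 3567 pairs with both names listed, L was higher in 1532 (42.9%) and S in 1091 (30.6%), with a median log2 ratio of 0.25, and 16.7% differed by at least 10-fold.

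The regulators that pattern the gastrula had modest ratios for the most part. Of 40 such genes chosen by name, 30 formed tested pairs. The L copy was higher in 13 of them and the S copy in 8, against 44.0% and 31.0% of all pairs, while 9 did not pass the test. Their median log2 ratio was 0.35, against 0.30 over all pairs, and 22 of the 30 differed by less than 2-fold. Over all pairs 23.7% differed by less than 1.5-fold and a further 14.2% by 1.5-fold to 2-fold. In whole embryos a change in the number of cells that make a transcript and a change in its level per cell cannot be told apart.

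Among the secreted signals, the organizer antagonists were split. The BMP antagonist nog had 7.86, 7.45 and 5.38 CPM for L and 1.23, 1.90 and 0.636 CPM for S in intact replicates 1, 2 and 3, a log2 ratio of 2.53 ± 0.34 (adjusted p = 0.00036). The multivalent antagonist cer1 had the opposite pattern, with 58.1, 12.5 and 39.8 CPM for L and 286, 118 and 243 CPM for S, or -2.71 ± 0.19 (adjusted p = 1.3e-05). For both genes the libraries of L and S did not overlap. The BMP antagonist fst was higher in L by 0.78 (adjusted p = 0.01, but 0.059 without replicate 3), and the Wnt antagonist dkk1 by 0.57 (adjusted p = 0.045), a call that was lost without any 1 of the 3 libraries (adjusted p between 0.061 and 0.17). The organizer's BMP ligand admp did not pass the test at 0.27, nor did the Wnt antagonist frzb at -0.09.

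The ventral and mesodermal signals also went both ways. The ligand bmp4 was lower in L, with 76.7, 64.9 and 69.5 CPM for L and 139, 106 and 101 CPM for S, or -0.70 ± 0.12 (adjusted p = 0.0014). The L copy was higher for the BMP feedback inhibitors szl at 0.91 and bambi at 0.81, for the Wnt ligand wnt8a at 0.79 and for fgf8 at 1.13. The ligand nodal had 7.57, 5.04 and 8.41 CPM for L and 0.576, 0.241 and 0.391 CPM for S, or 4.13 ± 0.36 (adjusted p = 3.8e-05), and its inhibitor lefty was higher in L by 1.52 (adjusted p = 0.00075). Sonic hedgehog, shh, did not pass the test at -0.05, with L below S in replicate 3 only.

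Among the transcription factors, brachyury, t, which drives mesoderm formation, had 234, 154 and 206 CPM for L and 448, 194 and 301 CPM for S. Its log2 ratio was -0.61 ± 0.13 (adjusted p = 0.0035). The neural sox3 at -0.84, the endodermal sox17a at -0.48, the organizer gene lhx1 at -0.84 and the ciliogenesis factor foxj1 at -0.67 were lower in L too. The calls for lhx1 (adjusted p = 0.11 without replicate 1 and 0.11 without replicate 3) and foxj1 (0.066 without replicate 1 and 0.0505 without replicate 2) were lost when 1 library was left out. The L copy was higher for the midline factor foxa4 at 1.14, the posterior cdx4 at 0.43 and the endodermal hhex at 0.76, whose call was lost without replicate 1 (adjusted p = 0.086). The organizer gene gsc at 0.59, eomes at 0.42, mix1 at 0.23, grhl3 at 0.10, ccno at 0.12 and sox17b.1 at -0.42 did not pass the test, although gsc (adjusted p = 0.049) and sox17b.1 (adjusted p = 0.014) passed it without replicate 2.

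The strongest imbalance among these regulators was that of tp63, the master factor of surface epithelia, with 0.206, 2.14 and 0.440 CPM for L and 69.4, 88.8 and 57.8 CPM for S. Its log2 ratio was -6.53 ± 0.51 (adjusted p = 2.1e-05), and -7.63 without replicate 2, the library with the highest L value. The POU factor pou2f3 was its counterpart, with 11.6, 10.1 and 11.2 CPM for L and 0.453, 0.414 and 0.734 CPM for S, or 4.39 ± 0.33 (adjusted p = 1.7e-05). With nodal these were the 3 of 30 regulators that differed by more than 10-fold, against 21.6% of all pairs at 10-fold or more.

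**Figure D2:**
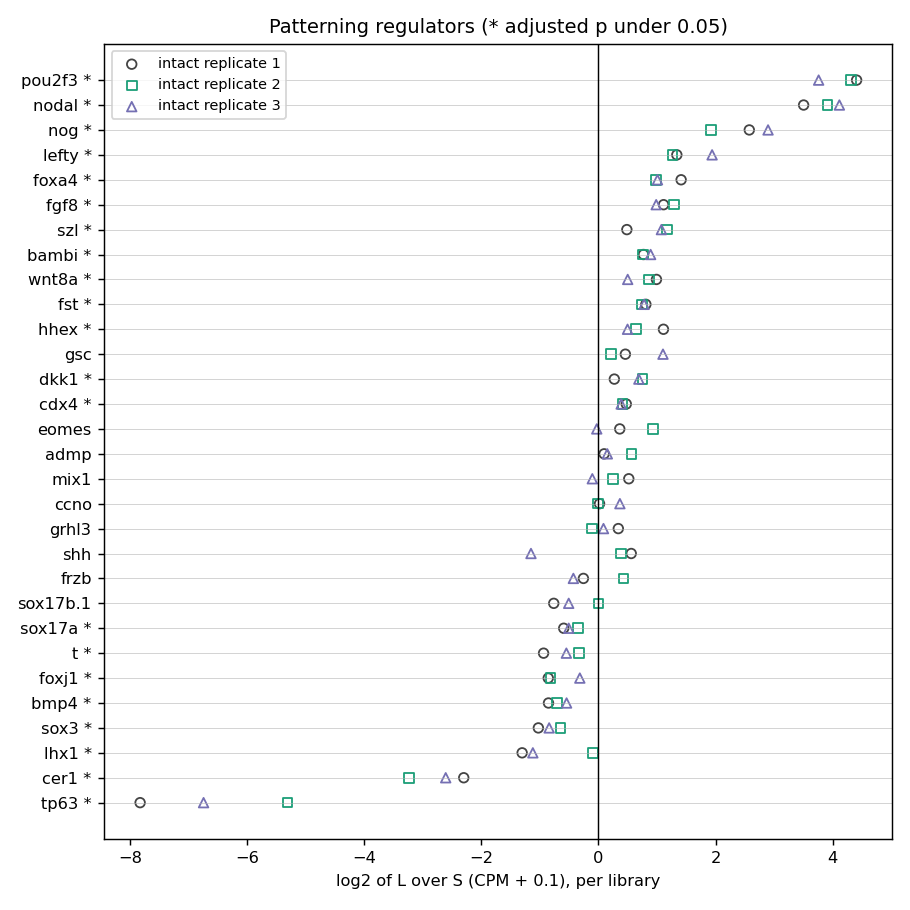
Log2 ratio of L to S (x axis, CPM + 0.1) in each of the 3 intact libraries for the 30 patterning regulators, ordered by the fitted ratio, with a star where edgeR's adjusted p was under 0.05. Most genes lie within 1 log2 unit of 0, while tp63 stands apart on the S side and nodal and pou2f3 on the L side.

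Some gene families had shares of calls away from the 44.0% (L) and 31.0% (S) of all pairs. These families and pathways, 30 lists in all, were matched on gene symbols and are described by counts without a set test. Among 106 solute carriers, the membrane transporters, L was higher in 60 and S in 31, with a median log2 ratio of 1.13. Among 25 pairs of the FGF pathway L was higher in 15 and S in 6, with a median of 0.65. The log2 ratios of this list ran from -2.60, for fgf14, to 7.57, for a pair not named here. That of fgf16 was 6.57 (7.28 without replicate 1). In the Notch pathway the share with L higher was close to that of all pairs and the share with S higher was lower. The L copy was higher in 8 of 19 pairs and S in 2, with a median of 0.42. The log2 ratios ran from -1.29, for hes3.3, to 3.50, for a pair not named here, and the target hes1 was at 2.05.

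**Figure D3:**
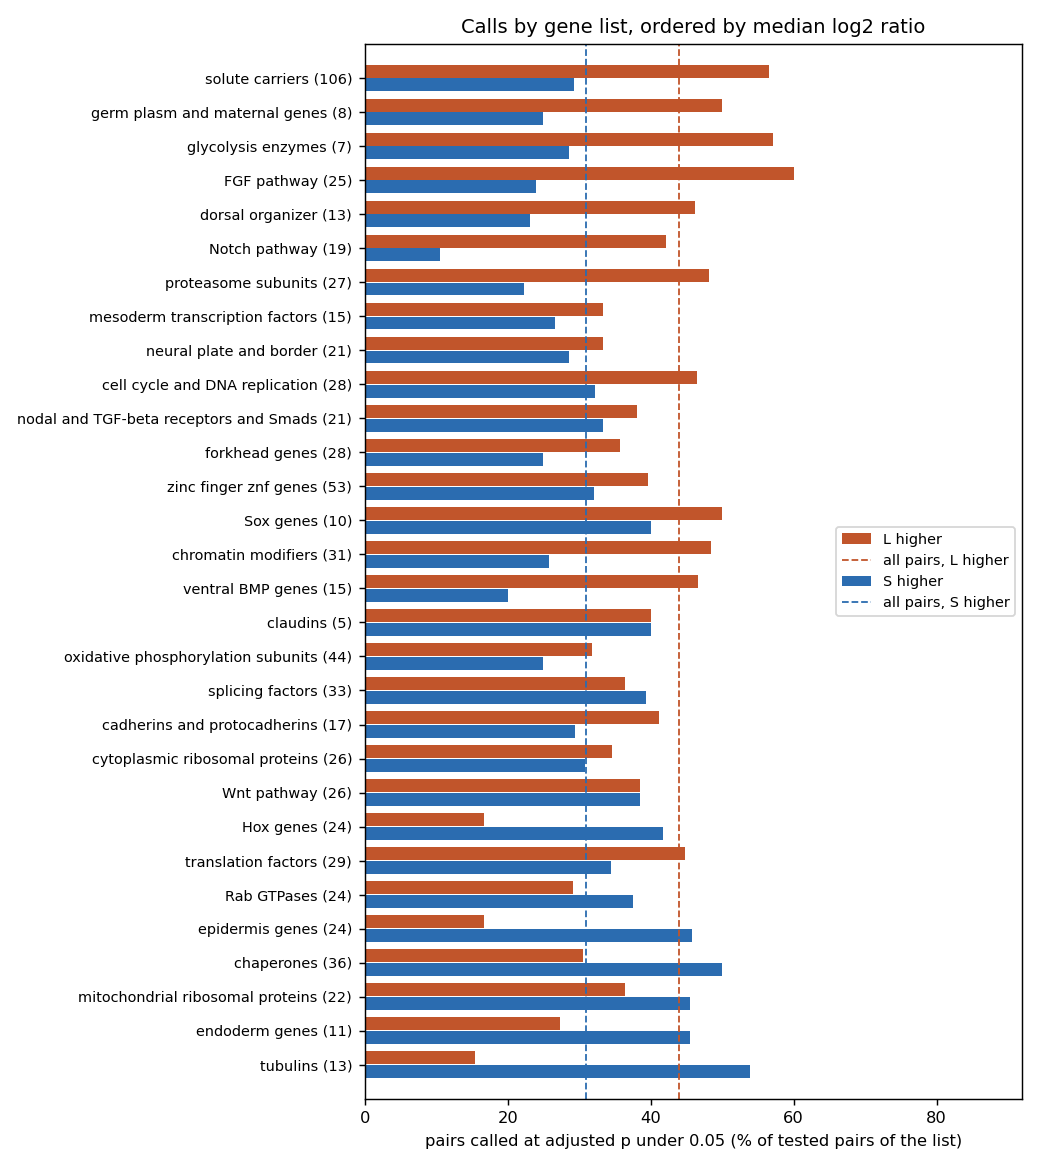
Percent of tested pairs called with L higher and with S higher in each of 30 gene lists (y axis, list with its number of tested pairs, ordered by median log2 ratio; x axis, percent; dashed lines, all pairs at 44.0% and 31.0%). Solute carriers, at the upper end, had L higher in 60 of 106 pairs, and tubulins, at the lower end, had S higher in 7 of 13.

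Tubulins and their gamma-tubulin complex partners leaned to S, with L higher in 2 of 13 pairs, S in 7, and a median of -1.59. The beta-tubulin tubb4a had 13.9, 8.76 and 3.23 CPM for L and 595, 368 and 245 CPM for S, a log2 ratio of -5.64 ± 0.20 (adjusted p = 9.9e-07). The alpha-tubulins tuba4b at -3.00, tuba1c at -1.72 and tuba4a at -1.59 were lower in L as well, as were tubb3 at -4.26 (-5.18 without replicate 1), tubg1-like.2 at -2.99 and tubgcp3 at -2.69. The neural beta-tubulin tubb2b ran the other way, with 16.4, 15.4 and 12.5 CPM for L and 1.11, 1.14 and 1.71 CPM for S, or 3.49 ± 0.31 (adjusted p = 3.8e-05). The other L call, tuba3c at 0.36 (adjusted p = 0.036), was lost without replicate 1 (0.18) or replicate 3 (0.061). The pairs that did not pass were tuba1b at -0.33, tuba4 at -0.34, tubb6 at -0.44 and tubgcp4 at -0.26, of which tuba4 passed without replicate 1 (-0.65, adjusted p = 0.019).

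The epidermis list, which holds keratins and surface ectoderm genes, had L higher in 4 of 24 pairs and S in 11, with a median of -0.22. Keratin krt12 had 15, 76.6 and 28.9 CPM for L and 564, 1096 and 753 CPM for S, or -4.58 ± 0.26 (adjusted p = 5.2e-06). The surface adhesion protein epcam was lower in L by 0.90 on the log2 scale, at 556, 383 and 473 CPM for L and 1003, 729 and 898 CPM for S. Beside cdh1, tp63, krt5.7 and foxj1, given above, the S copy was also higher for krt5.1-like.2 at -2.63, krt8.2 at -3.31, krt222-like, dlx3 at -0.45 and klf4 at -1.55. The call for dlx3 was lost without any 1 of the libraries (adjusted p between 0.063 and 0.14) and that for klf4 without replicate 1 (0.085) or replicate 3 (0.25). The log2 ratio of krt222-like was -6.37 without replicate 1 in place of -4.83. The 4 pairs with L higher were the simple-epithelium keratins krt8 at 0.91 and krt18 at 1.48, the epithelial factor grhl2 at 2.90 and the secreted lectin itln1 at 7.80. The value of itln1 rested on few S counts, and was 9.56 without replicate 1 and 6.69 without replicate 2. The 9 pairs that did not pass were grhl3 and ccno, given above, and dlx5, foxi1, foxj1.2, klf5, krt16, krt80 and myb, with log2 ratios between -0.27 and 0.28.

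The Hox genes specify position along the body axis and stand in 4 clusters, and their calls were spread unevenly over these. In the hoxb cluster the S copy was higher in 7 of 8 tested pairs and the L copy in 0. For hoxb1 the L copy had 0.0823, 0.414 and 0.245 CPM and the S copy 7.16, 32.4 and 9.44 CPM, a log2 ratio of -5.98 ± 0.36 (adjusted p = 6.2e-06). For hoxb4 and hoxb6 the L copy had 0 counts, so S was at least 164-fold and at least 201-fold higher (58-fold and 85.3-fold without replicate 2). The pairs hoxb2, hoxb3, hoxb8 and hoxb9 had log2 ratios between -2.39 and -5.79 (hoxb8 at -3.87, and at -4.60 without replicate 2). The remaining pair, hoxb7, was at -0.92 (adjusted p = 0.084). In the 3 other clusters most pairs were not called or went both ways.

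In the hoxc cluster 4 of 5 pairs did not pass the test, with hoxc4, hoxc5, hoxc8 and hoxc9 between 0.18 and 0.69, and hoxc10 was lower in L at -2.13. In the hoxd cluster 4 of 5 did not pass, among them hoxd1, the Hox pair with the highest level, at 83.7, 113 and 86.2 CPM for L and 91.5, 107 and 81.9 CPM for S. The others were hoxd3 at -0.02, hoxd9 at 0.45 and hoxd10 at 0.59. The exception was hoxd8, higher in L at 4.08 with 79 counts against 4 (3.40 without replicate 2, 4.72 without replicate 3). In the hoxa cluster hoxa7, hoxa9 and hoxa11 were higher in L and hoxa2 and hoxa3 in S. The S copy of hoxa7 had 0 counts, so L was at least 209-fold higher (89.7-fold without replicate 2), and the call for hoxa11 (1.31, adjusted p = 0.029) was lost without replicate 1 (0.12) or replicate 3 (0.10). Over all 24 Hox pairs L was higher in 4 and S in 10, with a median of -0.08.

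**Figure D4:**
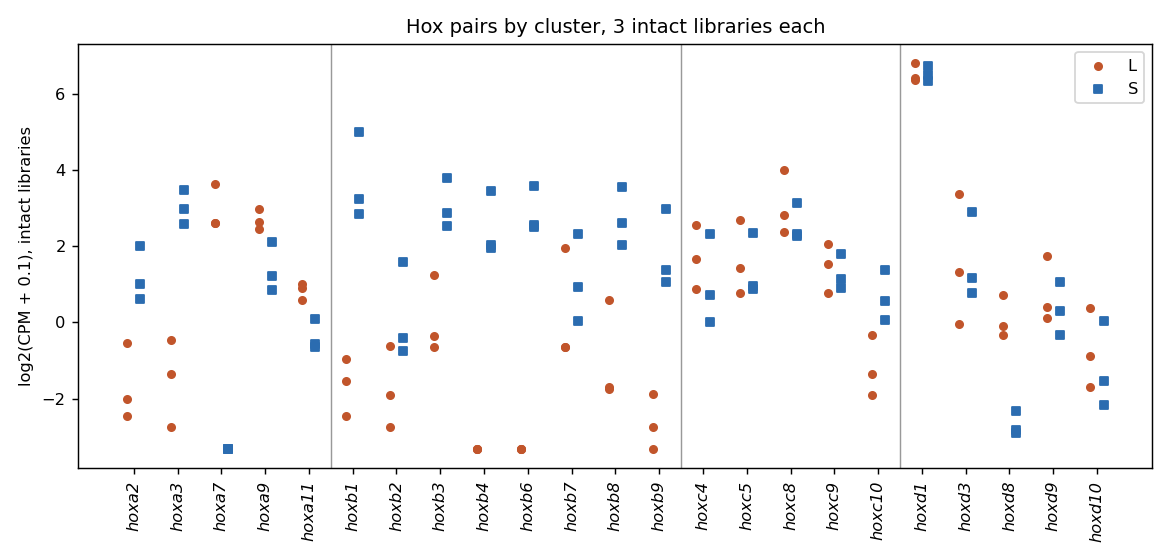
Level of the L copy (circles) and the S copy (squares) of Hox pairs in the 3 intact libraries (y axis, log2 of CPM + 0.1), grouped by cluster. The S copies lie above the L copies through most of the hoxb cluster, while the copies overlap for hoxd1 and for hoxc5 and hoxc9.

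Lists of basic cell machinery had medians on both sides of an equal ratio, and single members lay far from them. Over all pairs the median was 0.30, with L higher in 44.0% and S in 31.0%. Proteasome subunits had L higher in 13 of 27 and S in 6 (median 0.42), with the subunit psme1 at -2.82. Cytoplasmic ribosomal proteins had L higher in 9 of 26 pairs and S in 8, with a median of -0.02 and a narrow range from rps3a at -1.04 to rplp0 at 1.74. Mitochondrial ribosomal proteins had L higher in 8 of 22 and S in 10 (median -0.28), and mrpl17 had 0 counts for L and 11.8, 15.4 and 9.78 CPM for S, at least 311-fold higher in S (162-fold without replicate 2). Oxidative phosphorylation subunits had L higher in 14 of 44 and S in 11 (median 0.01), and among them ndufb7 was at least 392-fold higher in L, whose S copy had 0 counts (238-fold without replicate 2). Splicing factors had L higher in 12 of 33 and S in 13 (median -0.01), with the core protein snrpd1 at 1.99. Translation factors had L higher in 13 of 29 and S in 10 (median -0.16), with eif5b-like at -4.18. Chaperones had L higher in 11 of 36 and S in 18 (median -0.26), with the co-chaperone dnajc8 at -2.94.

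Cell cycle and DNA replication genes had L higher in 13 of 28 and S in 9 (median 0.29), with the spindle checkpoint protein mad2l1 at -5.97. Their shares of 46.4% and 32.1% were near the 44.0% (L) and 31.0% (S) of all pairs, whose median was 0.30. Chromatin modifiers had L higher in 15 of 31 and S in 8 (median 0.21), with the histone methyltransferase setd1b at -1.20. Rab GTPases, which direct vesicles, had L higher in 7 of 24 and S in 9 (median -0.18), with rab33b at -3.79. Zinc finger znf genes had L higher in 21 of 53 and S in 17 (median 0.22), with znf383 at 0 counts for L and at least 498-fold higher in S (251-fold without replicate 2). Cadherins and protocadherins had L higher in 7 of 17 and S in 5 (median -0.02), with cdh11 at 3.92. The small list of glycolysis enzymes had L higher in 4 of 7 and S in 2 (median 0.94), with hk2 at -2.03. The claudins of tight junctions had L higher in 2 of 5 and S in 2 (median 0.16), with cldn4 at 1.18, cldn6.1 at 1.01 and a lowest ratio of -3.80 on the S side.

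The medians of the remaining developmental lists lay between -0.42 and 1.04, against 0.30 over all pairs, where L was higher in 44.0% and S in 31.0%. Dorsal organizer genes had L higher in 6 of 13 and S in 3 (median 0.57), ventral BMP genes in 7 and 3 of 15 (median 0.19; bmp7.1 at 2.74 and id4 at -3.39), and nodal and TGF-beta components in 8 and 7 of 21 (median 0.23; smad4.2 at -3.33). The Wnt pathway was even, with L higher in 10 of 26 and S in 10 (median -0.04), from the feedback inhibitor axin2 at 3.43 to wnt8b at -4.13. Mesoderm transcription factors had L higher in 5 of 15 and S in 4 (median 0.35), and the muscle determination factor myod1 had 16.7, 42.5 and 15.8 CPM for L and 55.2, 131 and 58.1 CPM for S, or -1.74 ± 0.15 (adjusted p = 3.4e-05). Endoderm genes had L higher in 3 of 11 and S in 5 (median -0.42), with mixer at 1.51, and the protease inhibitor a2m, given with them, had 0, 0 and 0.0978 CPM for L and 1193, 1500 and 1273 CPM for S. Neural plate and border genes had L higher in 7 of 21 and S in 6 (median 0.32; sox9 at -1.11), Sox genes in 5 and 4 of 10 (median 0.22; sox8 at 2.72 and sox5 at -1.66), forkhead genes in 10 and 7 of 28 (median 0.23; foxm1 at -5.71), and germ plasm and maternal genes in 4 and 2 of 8 (median 1.04; zar1 at -3.56).

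Some ratios of these lists rested on very few counts of the lower copy. The nodal cofactor foxh1 had 23.9, 61.9 and 38.7 CPM for L and 0.699, 0.345 and 0.196 CPM for S, a log2 ratio of 6.56 ± 0.50 (adjusted p = 1.9e-05), and 7.51 without replicate 1. The germ plasm gene velo1 had 1269 counts for L and 1 for S, a ratio of 1269 with a 95% exact interval of 227 to 50162 for counting error only, and its log2 ratio of 9.86 was 11.66 without replicate 1. The DNA polymerase epsilon subunit pole3 had 1842 counts for L and 4 for S (interval 180 to 1692), and the succinate dehydrogenase subunit sdhc had 2 for L and 1204 for S (interval 166 to 4977). Without 1 library the log2 ratio of pole3 ran from 8.07 to 10.12 and that of sdhc from -8.24 to -9.65. The list ends with the highest L excess were likewise mrpl39 (363 counts for L and 2 for S), the translation initiation factor subunit eif2b4 (614 and 4), the proteasome assembly factor psmg3 (419 and 2), the forkhead factor foxo4 (1663 and 1), znf423 (1219 and 1) and the methyltransferase setd7 (474 and 5). Apart from eif2b4, the L to S ratios of these genes moved by more than 1.5-fold when 1 library was left out. The log2 ratio ran from 8.88 to 11.93 for znf423, from 9.59 to 12.20 for foxo4 and from 6.84 to 8.04 for psmg3, and it was 6.53 for mrpl39 without replicate 3 and 6.96 for setd7 without replicate 2. The sodium-proton exchanger slc9a8, with 0 counts for L and 535 for S, was at least 178-fold higher in S (110-fold without replicate 1). The a2m counts were 2 for L and 98501 for S, a ratio of S to L of 49250.5 (interval 13634 to 406683), and its log2 ratio was -14.58 without replicate 2 and -18.15 without replicate 3 in place of -15.33.

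The ratio of L to S differed between sibling sets for many genes. In a test of copy by replicate number over the 3 half-size and the 3 intact libraries, 2103 of 5518 pairs (38.1%) had different ratios between the numbers at an adjusted p under 0.05. The count was 1132 without replicate 2 and 1176 without a term for the group. This test was added after the data had been seen. Among pairs with at least 10 CPM the count was 1723 of 3730 (46.2%). In the called pairs the ratio spanned a median of 0.94 log2 units between the 3 intact libraries, which are 1 per number. In 442 of these pairs the intact libraries lay on both sides of an equal ratio. Over all tested pairs, called or not, 85.0% kept their sign in all 3 intact libraries. The called pairs were picked for ratios that differ, so their span and changes of side are not results of their own. Among the intact libraries alone, the replicate farthest from their median was 1 in 794 of the called pairs, 2 in 818 and 3 in 491.

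The 8 pairs with the widest spans among intact libraries were singled out after their values were seen. They were picked from called pairs of at least 10 CPM, without model or clone names. Their call rested on the half-size and intact libraries together, so likeness between the groups in these pairs is not read as support. In several of them 1 copy varied far more than the other. The S copy of the adhesion protein sdk2 had 0.741, 45.9 and 56.7 CPM in intact replicates 1, 2 and 3, while its L copy had 19.1, 43.0 and 22.3 CPM. The L over S log2 ratios of sdk2 were 3.83, -0.45 and -2.47 in half-size replicates 1, 2 and 3 and 4.52, -0.09 and -1.34 in intact ones, high in replicate 1 and lowest in replicate 3 of both groups. The S copy of gpx1, an antioxidant peroxidase, had 21.4, 27.4 and 0.685 CPM beside 17.2, 19.0 and 15 CPM for L. Its log2 ratios were -0.75, 0.40 and 4.11 in half-size replicates and -0.32, -0.53 and 4.27 in intact ones, high in replicate 3 of both groups.

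In other pairs the L copy was the one that varied. The calcium-binding protein scgn had 0.288, 0.103 and 49.4 CPM for L in intact replicates 1, 2 and 3 and 0.494, 0.690 and 0.196 CPM for S. The recoverin gene rcvrn.1 had 0, 0 and 73.2 CPM for L and 0.165, 0.241 and 0.440 CPM for S. In intact replicates 1 and 2 both copies of these genes lay under 1 CPM, so their ratios there rest on few counts. Only their level in replicate 3 took these pairs past 10 CPM. Both were high in replicate 3 of the half-size embryos too, with log2 ratios of 6.48 for scgn and 7.45 for rcvrn.1, which is not read as support. The scaffold kidins220 had 19.7, 15 and 12.9 CPM for L against 0.329, 5.38 and 20.6 CPM for S, so its intact log2 ratios were 5.53, 1.47 and -0.68. The other pairs were g0s2, a lipase inhibitor, nid1, a basement membrane protein, and dstn, which severs actin filaments.

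Because of such pairs, a ratio over the intact libraries was that of these 3 sibling sets. None of scgn, rcvrn.1, kidins220, sdk2 and gpx1 passed the test of L against S (adjusted p between 0.12 and 0.63), whereas g0s2 (3.84), nid1 (-3.94) and dstn (4.59) did. Left-out libraries moved these strongly: rcvrn.1 was at 6.29 without replicate 2 (adjusted p = 0.0023) and at -5.49 without replicate 3, kidins220 at 3.24 without replicate 3 (adjusted p = 0.017) and scgn at 4.60 without replicate 2 (adjusted p = 0.029). With replicate 3 left out, no L counts remained for rcvrn.1, so the size of that ratio was not measured. The log2 ratio of g0s2 was 5.53 without replicate 1 and 2.66 without replicate 3, that of nid1 was -5.43 without replicate 1 and -2.72 without replicate 2, and that of dstn was 3.68 without replicate 1 and 6.08 without replicate 2. Of the 30 patterning regulators, 15 had ratios that differed between the numbers, against 38.1% of all pairs and 46.2% of pairs with at least 10 CPM. They included t, eomes, shh, lhx1 and tp63. For eomes the intact values were 54.5, 29.3 and 28.9 CPM for L and 42.3, 15.3 and 29.5 CPM for S, with S above L in replicate 3 alone.

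**Figure D5:**
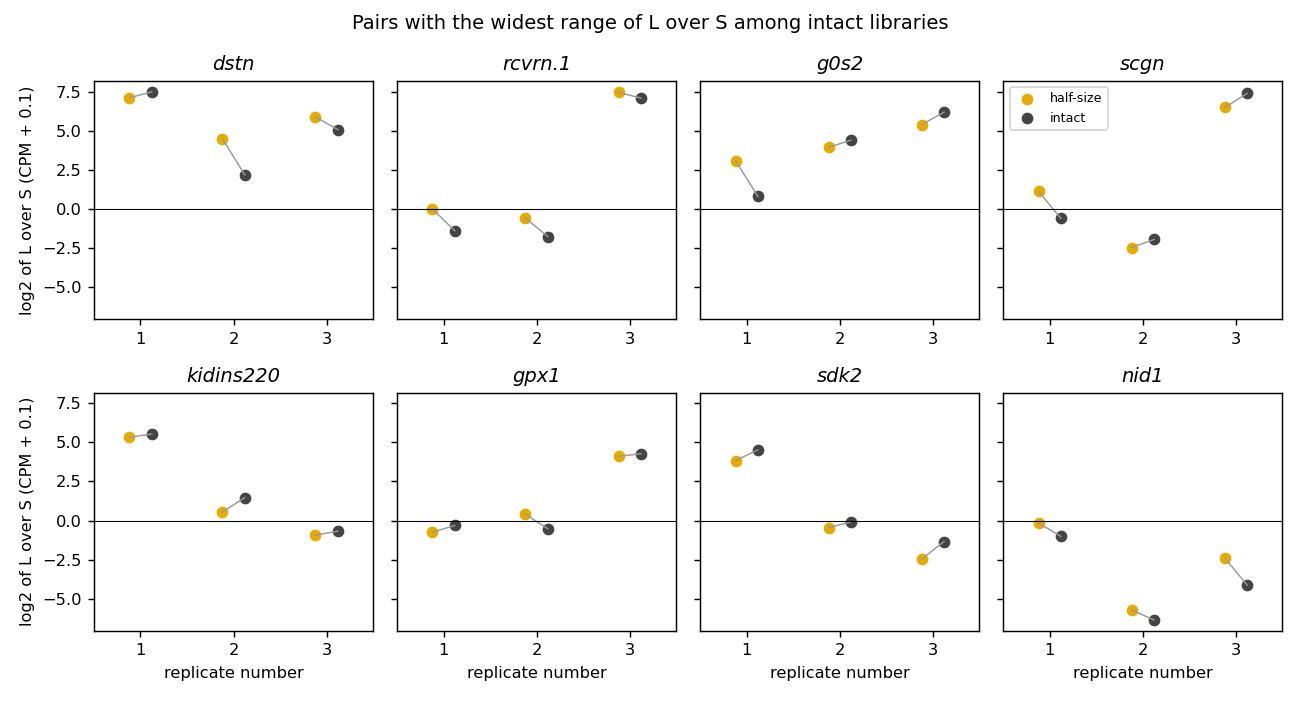
Log2 ratio of L to S (y axis, CPM + 0.1) by replicate number (x axis) in half-size and intact embryos. The 8 pairs had the widest range among intact libraries and were picked as in the text. For gpx1 replicate 3 stands apart from the other numbers in both groups, at 4.11 in half-size and 4.27 in intact embryos, and sdk2 is highest in replicate 1 of both groups, at 3.83 and 4.52.

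The L and S calls were largely shared by the half-size embryos. The same test in the half-size libraries called 2377 pairs with L higher and 1678 with S higher, of which 2260 and 1577 were also called in the intact libraries with the same sign. No pair was called in opposite directions, and 99.9% of the pairs called in intact embryos had the same sign in half-size embryos. The median log2 ratios were 0.28, 0.33 and 0.32 in half-size replicates 1, 2 and 3, against 0.29, 0.30 and 0.31 in the intact ones.

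Whether the ratio itself differed between half-size and intact embryos depended on how the sibling sets entered. In the test of copy by group with no term for the replicate number, edgeR called 0 of 5518 pairs (0.0%), with 156 at an unadjusted p under 0.05. DESeq2 also called 0. That test leaves out the pairing of siblings, so its 0 calls do not show that the ratios were equal. With the replicate number as a block 157 pairs (2.85%) were called, with the L over S ratio higher in half-size embryos in 84 (1.52%) and lower in 73 (1.32%). The median absolute change was 0.63 log2 units, and 25 pairs changed by at least 1 unit. Of the 157 pairs, 94 also had ratios that differed between replicate numbers, against 38.1% of all pairs and 46.2% of pairs with at least 10 CPM. Leaving out replicate 3 left 47 calls in the blocked test, 37 of them shared with the 157.

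In the epidermis list 4 of 24 pairs were called with the block, namely krt5.7, krt18, grhl3 and itln1, against 2.85% of all pairs. The share was also above that of all pairs for the tubulins (2 of 13), the ventral BMP genes (2 of 15) and several other lists. Among these were the Wnt pathway (2 of 26), mesoderm transcription factors (1 of 15), splicing factors (2 of 33) and solute carriers (5 of 106). No set test was run, and of the 4 epidermis pairs only krt18 kept its call without replicate 3. Among the called pairs as a whole, gs17, pkp3 and fzd6 had some of the largest changes. For gs17 the log2 ratios of L to S were 4.35, 3.47 and 4.37 in half-size replicates 1, 2 and 3 and 3.38, 1.64 and 2.69 in intact ones, a change of 1.51 ± 0.13 (SE, adjusted p = 1.1e-05 with the replicate block). For the desmosome protein pkp3 they were 4.09, 2.33 and 3.54 in half-size and 3.08, 1.15 and 2.00 in intact replicates, a change of 1.25 ± 0.13 (adjusted p = 7.2e-05 with the block). For the Wnt receptor fzd6 they were 0.59, 2.90 and 1.51 in half-size and 2.73, 3.96 and 2.85 in intact replicates, a change of -1.50 ± 0.19 (adjusted p = 0.00039 with the block). Each pair moved the same way in all 3 sibling sets, while half-size and intact values overlapped for pkp3 and fzd6 and did not for gs17. The blocked test favours pairs that move alike in every set, and these pairs were picked by it, so this is not read as support.

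Smaller changes were called in more abundant pairs. The ratio of keratin krt18 was lower in half-size embryos, at 0.93, 0.99 and 1.18 in half-size and 1.43, 1.39 and 1.61 in intact replicates, with a change of -0.45 ± 0.06 (adjusted p = 0.00056 with the block). That of tubb4a was -4.86, -4.92 and -5.02 in half-size and -5.41, -5.38 and -6.20 in intact replicates, a change of 0.67 ± 0.11 (adjusted p = 0.006 with the block). For both genes the groups did not overlap, but they were chosen from the pairs called in this test, so this is not read as support. Of the 30 patterning regulators 1 was called, the surface ectoderm factor grhl3, at 0.61, 0.42 and 0.33 in half-size and 0.34, -0.11 and 0.09 in intact replicates, a change of 0.35 ± 0.07 (adjusted p = 0.021 with the block, 0.14 without replicate 2 and 0.063 without replicate 3).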

How the data were processed

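Poly(A) libraries were made from whole embryos with a kit that keeps strand, per the labels' protocols. The authors deposited raw read counts per gene, as whole numbers without normalization. The submitters' processing notes name TopHat2, HTSeq and DESeq with no version or role, and the labels state no build, annotation or use of strand in counting. The authors' own comparison table was not used.

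Genes were paired by symbol, and the pairs and the gene lists were chosen with earlier results of these data known. In the named pairs were the 10 largest ratios in each direction with both copies counted in every intact library and at least 10 CPM, the 5 highest pairs in each direction with the other copy at 0, the 10 most abundant pairs, the ends of each of 30 lists at 5 CPM or more, the 5 largest changes in each direction between groups, and 40 patterning regulators. Ranked pairs and list ends were picked from the 5213 tested pairs without a model or clone name. Further members of the Hox, tubulin and epidermis lists were also named.

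The L and S counts of a pair entered edgeR 4.0.16 (R 4.3.3) as separate columns of a library with the same TMM library size, and glmQLFit and glmQLFTest tested the copy with the library as a block. Tests were two-sided, with Benjamini-Hochberg adjustment over 5518 pairs at 0.05. DESeq2 1.42.0 was the alternative tool. The scripts were checked on simulated counts. Ratios per library used log2(CPM + 0.1). Intervals on count ratios are exact 95% binomial intervals, and the floor for a copy at 0 is 3 counts over the 3 libraries. Between any pair of libraries the chi-square divided by its degrees of freedom lay between 13.3 and 91.3, so each was counted as 1 sample.

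The labels name half-size and intact embryos of a number as siblings. The deviations of the log2 ratios from the group means had r = 0.68, 0.74 and 0.63 across pairs between half-size and intact libraries of the same number. For this reason the blocked test is printed beside the other. Between different numbers r lay between -0.45 and -0.21. Deviations from a mean cancel within a group, so positive values for the same number make the others negative on average, and these add no evidence. No sequence is printed, because no table of sequences was at hand. Some named pairs are not reported here.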

Additional observations from a re-analysis of the deposited data

Results flagged for a closer look

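The following pairs are listed because their L over S ratio differed between half-size and intact embryos in the test with the replicate number as a block. Of 20 such named pairs, 15 kept the call without replicate 1, 16 without replicate 2 and 5 without replicate 3 (krt18, gs17, pkp3, fzd6 and tubb4a). DESeq2 with the block kept 12, lost 5 and gave no adjusted p for 3. Without the block 0 of the 20 passed in edgeR or in DESeq2.

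Changes are log2 ratios in half-size minus those in intact embryos. The ratio was higher in half-size embryos for kdelr3, which returns proteins to the endoplasmic reticulum, by 2.15, by 4.15 without replicate 2 and by 1.41 without replicate 3. It was higher for the endosomal sorting protein hgs by 1.55, for gs17 by 1.51, for fam83b by 1.41 and for pkp3 by 1.25. Smaller increases were those of tubb4a at 0.67, the ligand bmp7.1 at 0.54, grhl3 at 0.35, ahnak-like at 0.34 and tuba3c at 0.24.

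The ratio was lower in half-size embryos for the lectin itln1, with a change of -1.83, the carbonic anhydrase ca7 at -1.76, fzd6 at -1.50, the receptor kinase axl at -1.31 and eps8l2-like at -1.29. Further decreases were those of sdk2 at -0.72, krt18 at -0.45, snrpd1 at -0.27, hnrnpa1 at -0.23 and krt5.7 at -0.21. Apart from hnrnpa1, snrpd1, bmp7.1, tubb4a, hgs, fam83b and ca7, these pairs also had ratios that differed between replicate numbers, and the part of the sibling sets in these changes was not tested.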

How the results depend on the processing

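Between 2146 and 2275 pairs were called with L higher, and between 1484 and 1623 with S higher, when 1 intact library was left out, and DESeq2 called 2394 and 1673. No called pair changed sign without 1 library. Among the pairs with both names in the RefSeq gene models, L was higher in 1532 and S in 1091. These are the main calls counted over fewer pairs, without a new test. The median log2 ratio of 0.30 was 0.25 with 1 CPM added, 0.21 with no minimum level, 0.32 at 10 CPM or more, 0.25 for pairs with both names, and 0.295 to 0.320 without 1 library. The L share was 53.3% without the 10 most abundant of all tested pairs, model and clone names included.

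Without the replicate block of the L against S test 2241 and 1575 pairs were called. The half-size against intact test called 0 pairs in edgeR and 157 with the replicate block, 129 in DESeq2 with the replicate block, and 168, 198 and 47 with the block and without replicate 1, 2 and 3. The replicate number test called 2103 pairs, 1176 without the group term, and 1132 to 1601 without 1 replicate.

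Of 137 named pairs, 134 kept direction and call under DESeq2 and 126 without the block. Signs turned for rcvrn.1 in DESeq2 (-3.30) and for sdk2 without the block (-0.29) and in half-size libraries (-0.13). Without 1 library the log2 ratio ran from -0.34 to 0.086 for frzb (0.00019 without replicate 1), -0.36 to 0.48 for shh, -0.014 to 0.21 for grhl3, -1.66 to 4.60 for scgn, -5.49 to 6.29 for rcvrn.1, -0.71 to 1.93 for sdk2 and -0.42 to 1.63 for gpx1. The cause was not tested. The lower ends for scgn and rcvrn.1, both without replicate 3, rest on few or no L counts. Not run were the division by coding length and the removal of pairs with near-identical proteins, since neither lengths nor sequences were at hand. Ratios above 100-fold rest on few counts of the lower copy, so depth limits their size.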

Other observations

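Neighbouring genes on the L chromosomes showed no common lean. For 3925 couples of pairs that follow each other in the order of the RefSeq gene table, the log2 ratios had a Pearson r of 0.01 and a Spearman rho of 0.02 across couples, given as a description because couples share pairs.

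Many genes with no partner of the same name were expressed. Of 3828 L names without an S partner 2370 reached 1 CPM, with a median of 10.5 CPM, and of 1178 S names without an L partner 616 did, with a median of 12 CPM. Among the members of pairs, copies of at least 1 CPM had a median of 16.4 CPM for L and 13.9 CPM for S.

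In 7 pairs of at least 10 CPM the L copy was at least 2-fold higher in 1 intact library and the S copy at least 2-fold higher in another. The replicate-number test used the same libraries and is not read as support.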
